A study of Mus musculus with 18 samples.

Results

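MBD3 peaks outside marked chromatin were 10921 regions of the mouse genome where MBD3 was found in the cerebral cortex of at least 2 animals and where none of 3 marks of active chromatin had a peak in any animal. The marks were acetylation of lysine 27 of histone H3 (H3K27ac), mono-methylation of lysine 4 (H3K4me1) and RNA polymerase II phosphorylated on serine 5 (PolII_S5P). The regions were chosen by merging the MBD3 peaks of 3 libraries on chromosomes 1 to 19 wherever they shared at least 1 bp. This gave 74385 regions, of which 48110 had peaks from at least 2 libraries. The 10921 without a mark made up 22.7% of those 48110, and the other 37189, called marked regions here, served as the comparison. The choice itself rests on MBD3 peaks and on the absence of mark peaks, so values of those kinds from the libraries that made the choice are given as a description without a test. Tests were kept for TDG and for an animal left out of the choice.

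Chromatin immunoprecipitation sequencing (ChIP-seq) had been done on frozen cortices of 3 wild-type mice (C57BL/6J, female, 14 weeks old), which the labels call animals 5, 7 and 9. Each animal gave 1 library for each of 5 antibodies, against H3K27ac, H3K4me1, PolII_S5P, MBD3 and TDG, with no treatment and no mutant. The cortex is a bulk tissue of neurons and glia, so a strong signal in few cells and a weak signal in many cells cannot be told apart, and no list here checks the cell types. The MBD3 lists held 56738, 61187 and 38821 peaks on chromosomes 1 to 19 in animals 5, 7 and 9, and the TDG lists 125, 240 and 934. The MBD3 list of animal 9 was the shortest and its TDG list the longest. H3K27ac lists held 57846 to 67877 peaks, H3K4me1 lists 22555 to 45575 and PolII_S5P lists 4351 to 19509. Read depth is not recorded in peak lists, and it decides how many weak marks could be called, so "without a mark" means without a called peak.

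MBD3 is a subunit of NuRD, a complex that joins a chromatin remodeller (CHD4) with histone deacetylases, enzymes that remove acetyl groups such as that of H3K27ac. Mammalian MBD3 carries a methyl-CpG-binding domain that has lost most of its preference for methylated DNA, and NuRD is mostly found at active promoters and enhancers. H3K27ac marks active promoters and enhancers, H3K4me1 marks enhancers whether active or not, and serine 5 phosphorylation is the form of polymerase near transcription starts. TDG (thymine DNA glycosylase) removes oxidized forms of methylcytosine in active DNA demethylation, and the title of the series names an interaction between TDG and MBD3/NuRD.

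Regions without a mark were found in every MBD3 list, and their share was larger where fewer libraries had a peak. Of the regions with a peak in all 3 MBD3 libraries, 15.3% had no mark (4627 of 30268). Of those with peaks in exactly 2 libraries 35.3% had none (6294 of 17842), and of those with a peak in 1 library 48.0% (12619 of 26275, which are not members). The members held 17.7%, 17.1% and 15.7% of the MBD3 peaks of animals 5, 7 and 9. Every autosome contributed, and members made up between 19.3% of the reproducible MBD3 regions on chromosome 13 and 25.9% on chromosome 4.

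Fewer unmarked than marked regions had MBD3 peaks in every animal. Peaks in all 3 libraries were present at 42.4% of the unmarked regions and 68.9% of the marked regions. Peaks in animals 5 and 7 but not 9 made up 44.4% of unmarked regions (4848) and 24.3% of marked regions (9040). Pairs with animal 9 were few, with 528 unmarked regions for animals 5 and 9 and 918 for animals 7 and 9. In all, 91.6%, 95.2% and 55.6% of the unmarked regions had a peak in animals 5, 7 and 9, against 95.7%, 97.6% and 75.7% of the marked regions. The library of animal 9, with the shortest list, was the one most often missing in both sets.

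**Figure D1:**
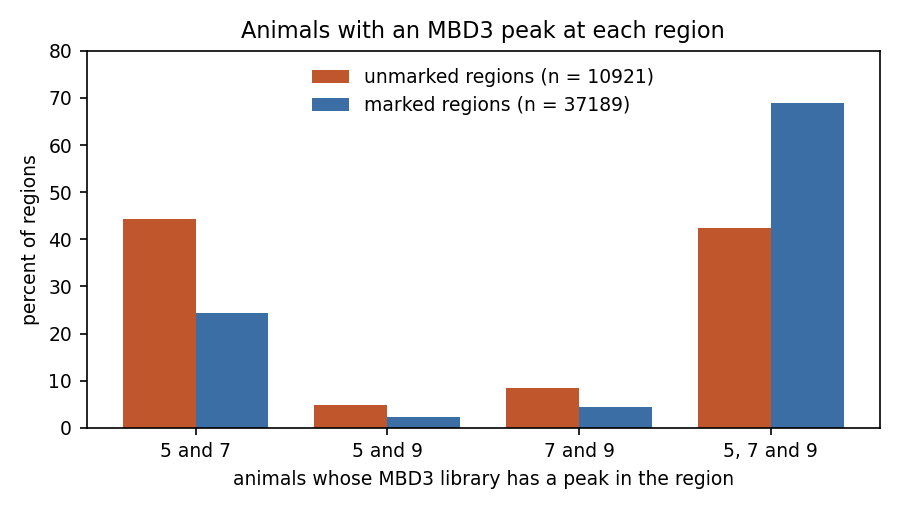
Percent of regions (y axis) by the animals whose MBD3 library has a peak there (x axis), for 10921 unmarked and 37189 marked regions from at least 2 libraries. Peaks in all 3 libraries were seen at 42.4% of unmarked and 68.9% of marked regions, and peaks in animals 5 and 7 alone at 44.4% and 24.3%.

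Where several libraries had a peak in a region, their summits lay close together. Only overlapping peaks were merged into a region, which limits how far apart the summits can lie, so the distances are a description. In the unmarked regions the strongest summits of animals 5 and 7 lay a median of 33 bp apart (9475 regions), those of animals 5 and 9 31 bp (5155) and those of animals 7 and 9 30 bp (5545). In marked regions the same medians were 38, 39 and 38 bp. Between 84.1% and 87.5% of the unmarked pairs lay within 100 bp, against 76.7% to 77.8% of the marked pairs. More than 1 peak of a library was held by 0.907% of unmarked regions and 7.74% of marked regions, and marked regions were also wider. The part of both in the summit distances was not tested. The order of strength was also shared, with a Spearman correlation of fold enrichment across the 4627 unmarked regions of all 3 libraries of 0.653 for animals 5 and 7, 0.537 for 5 and 9 and 0.598 for 7 and 9. Across the 25641 marked regions of all 3 libraries, the same pairs gave 0.728, 0.499 and 0.606. The points of such a correlation share the local background of the genome, and regions are not replicates.

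A left-out animal tested how often MBD3 peaks recur at such sites, using MBD3 peaks and marks that played no part in the choice. A recurring MBD3 peak was counted whether or not the left-out animal also had a mark peak at the region. Regions were chosen from MBD3 peaks in both of 2 animals with no mark in either, and the remaining animal was then read. With animals 5, 7 and 9 left out in turn, 85.1%, 90.6% and 50.04% of the unmarked regions had an MBD3 peak in the left-out animal (5847 of 6871, 5872 of 6478 and 5013 of 10017). For marked regions the shares were 94.2%, 96.8% and 74.0%, and over all regions so chosen they were 92.3%, 95.6% and 68.6%. The unmarked share was lower in 3 of 3 animals, and animal 9 gave the lowest share in both sets. The means were 75.3 ± 22.01% for unmarked and 88.3 ± 12.5% for marked regions (SD, n = 3 each), a difference of -13.1 percentage points with an SD of 9.53 over the 3 within-animal differences. It did not pass a two-sided exact permutation test without pairing (p = 0.5, where 0.1 is the smallest that 3 against 3 allows) or an exact sign-flip test with pairing by animal (p = 0.25, the smallest possible). With marked regions weighted to the widths of the unmarked ones, a setting added after seeing the data, the difference was -3.86 ± 4.70 points (SD, n = 3, exact permutation p = 0.6). The 3 rounds share libraries and are not independent.

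The absence of a mark was itself mostly, but not wholly, repeated in the left-out animal. Of the unmarked regions chosen in the other animals, 17.7%, 18.2% and 5.02% carried a mark peak in animals 5, 7 and 9, a mean of 13.7 ± 7.49% (SD, n = 3). The marked regions carried one in 90.7%, 92.2% and 77.6% of cases. H3K27ac was the mark that most often appeared, at 13.6%, 11.5% and 3.18% of unmarked regions. H3K4me1 appeared at 5.76%, 6.96% and 1.41%, and PolII_S5P at 0.0291%, 1.91% and 0.659%. Animal 9, whose H3K27ac and H3K4me1 lists were the shortest, gave the lowest share of regions with a mark.

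Unmarked regions were narrow. Their median width was 435 bp, with an interquartile range of 347 to 564 bp and a full range of 222 to 2937 bp, and they covered 5.35 Mb in all. Marked regions had a median of 724 bp, an interquartile range of 499 to 1090 bp, a full range of 223 to 7979 bp and 32.7 Mb covered. Only 348 unmarked regions (3.19%) were wider than 1000 bp, against 29.6% of marked regions. The peaks themselves showed the same difference in each library, with median widths of 358, 357 and 305 bp in unmarked regions of animals 5, 7 and 9 and 600, 606 and 437 bp in marked regions. The mean difference was -208 ± 65.6 bp (SD, n = 3). A wider region has more bases on which a mark peak can fall, so the choice itself can tie width to the lack of a mark. How far it did so was not tested. The share of regions without a mark was 51.4% for widths under 350 bp. It was 40.7% in the class that begins at 350 bp, 29.9% in that from 450 bp, 14.4% in that from 600 bp and 3.86% in that from 900 bp.

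The strength of MBD3 at unmarked regions was moderate. Fold enrichment, the authors' ratio of pileup to local background at a peak, had medians of 5.58, 5.42 and 5.85 at unmarked regions in animals 5, 7 and 9, against 6.92, 6.67 and 5.67 at marked regions. As a percentile of the whole MBD3 list the unmarked medians were 45.2, 46.0 and 53.6 and the marked medians 62.0, 62.8 and 51.6. In animals 5 and 7 the unmarked peaks thus stood below the marked ones, and in animal 9 slightly above them. The mean difference was -10.55 ± 10.8 percentile points (SD, n = 3). With an animal left out and the regions chosen again from the remaining animals, it was -16.6 without animal 9, -5.32 without animal 5 and -4.84 without animal 7.

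Taking the strongest peak of each region in place of all peaks, the gap in percentile was small among narrow regions and larger among wide ones. Under 350 bp the unmarked medians were 44.0, 46.1 and 57.0 in animals 5, 7 and 9 and the marked medians 42.7, 47.3 and 55.9. From 900 bp the unmarked medians were 52.9, 51.9 and 32.1 and the marked medians 76.0, 74.4 and 47.0. Over 5 classes of equal number by mean percentile, the share of reproducible regions without a mark was 33.5%, 26.3%, 21.6%, 19.4% and 12.6% in order of increasing strength. Unmarked regions with peaks in 3 libraries were stronger than those with 2, with median folds of 6.85, 6.71 and 6.05 against 4.92, 4.68 and 5.27 in animals 5, 7 and 9.

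**Figure D2:**
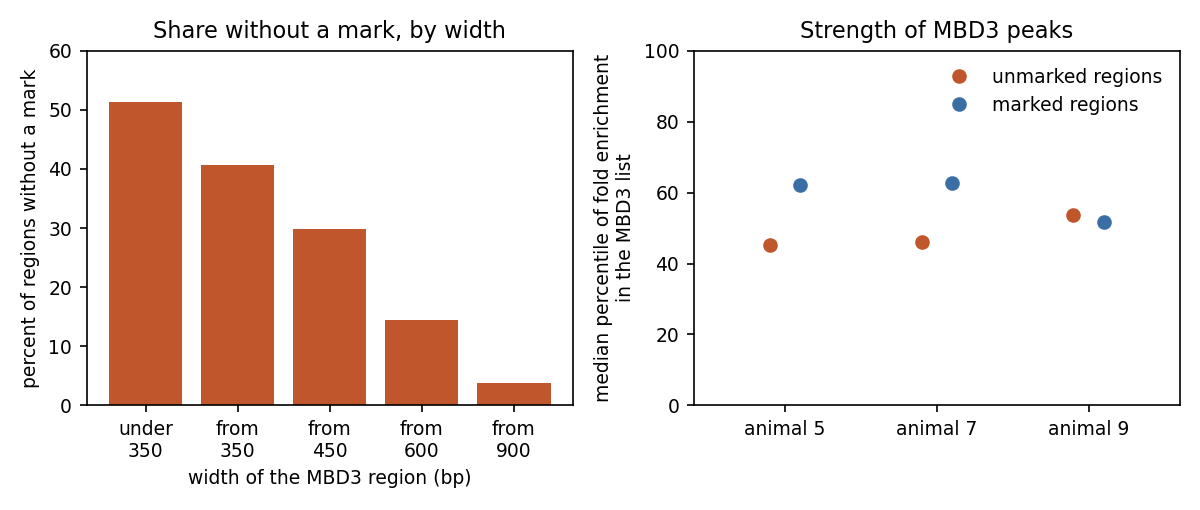
Left, percent of reproducible MBD3 regions without a mark (y axis) in 5 classes of region width in bp (x axis), from 51.4% under 350 bp to 3.86% from 900 bp. Right, median percentile of MBD3 fold enrichment within each animal's list for peaks in unmarked and marked regions, 1 point per library, with the unmarked points lower in animals 5 and 7 and higher in animal 9.

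Compared with regions carrying a single kind of mark, unmarked regions were closest in width to those with H3K4me1 alone and closest in repeatability to those with PolII_S5P alone. The 1794 MBD3 regions with H3K4me1 only had a median width of 454 bp, and 49.6% had peaks in all 3 libraries. The 13594 with H3K27ac only had a median of 644 bp and 64.0% in all 3 libraries, and the 347 with PolII_S5P only 579 bp and 47.0%. The 7821 with H3K27ac and PolII_S5P, the pair found at active promoters, had 1158 bp and 81.7%. These are values side by side, since the presence of the marks is what separates the classes.

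A minority of unmarked regions were among the strongest MBD3 sites. In 198 of them (1.81%) the peak was in the top 10% of all 3 MBD3 lists, as it was in 2007 marked regions (5.40%). Only regions with peaks in all 3 libraries could qualify, which were 4627 unmarked (42.4%) and 25641 marked regions (68.9%). These 198 had a median width of 508 bp and lay a median of 9292 bp from H3K27ac. Of the 198, 62 were within 1000 bp of a mark peak and 4 carried TDG. Over all 10921 unmarked regions, 2028 (18.6%) were within 1000 bp of a mark peak and 55 (0.504%) carried TDG.

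The 10 strongest unmarked regions by mean rank over the 3 lists are on 8 chromosomes and are 361 to 797 bp wide. All coordinates are on build mm39. First was chromosome 1, 189692463 to 189693259, with MBD3 folds of 31.1, 37.4 and 35.4 in animals 5, 7 and 9. It lay 37332 bp from H3K27ac but 101 bp from another mark peak. Next came chromosome 7, 49081943 to 49082518, with folds of 26.6, 40.9 and 28.7, 2792 bp from the nearest mark. It was followed by chromosome 10, 94431501 to 94432113, with folds of 31.6, 32.6 and 24.7, and only 13 bp from an H3K27ac peak. Strength in every animal is what the ranking over the 3 lists chose.

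Others of the 10 stood far from any mark. Chromosome 13, 17152227 to 17152730, had folds of 26.8, 28.6 and 20.7 in animals 5, 7 and 9 and was 214077 bp from the nearest mark peak. Chromosome 2, 161259876 to 161260360, had folds of 29.5, 33.2 and 24.7 at a distance of 92682 bp, and chromosome 10, 130430300 to 130430858, folds of 29.5, 31.4 and 20.1 at 45835 bp. The other 4 were on chromosomes 4, 7, 9 and 15. Over all 10, 6 lay within 1000 bp of a mark peak and 3 more than 10 kb away, and none carried a TDG peak. Among all unmarked regions, 18.6% lay within 1000 bp of a mark peak and 46.0% more than 10 kb away. Without an annotation on mm39 the genes at these positions were not analysed here.

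Most unmarked regions lay several kb from acetylated sites. The distance to the nearest H3K27ac peak of any animal had a median of 11983 bp, with an interquartile range of 3517 to 33049 bp, where 1 bp means directly adjacent. Within 1000 bp of H3K27ac lay 1427 regions (13.1%), of which 623 were within 200 bp, while 1810 (16.6%) were more than 50 kb away and 766 (7.01%) more than 100 kb. The median was 21352 bp for H3K4me1, 62250 bp for PolII_S5P and 8482 bp for whichever mark was nearest. The order follows the lengths of the lists, with H3K27ac the longest and PolII_S5P the shortest. Measured only to the H3K27ac peaks of the same animal, the medians were 15135, 16176 and 22753 bp in animals 5, 7 and 9 (mean 18021 ± 4131 bp, SD, n = 3). Animal 9, with the shortest H3K27ac list, had the longest distance.

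**Figure D3:**
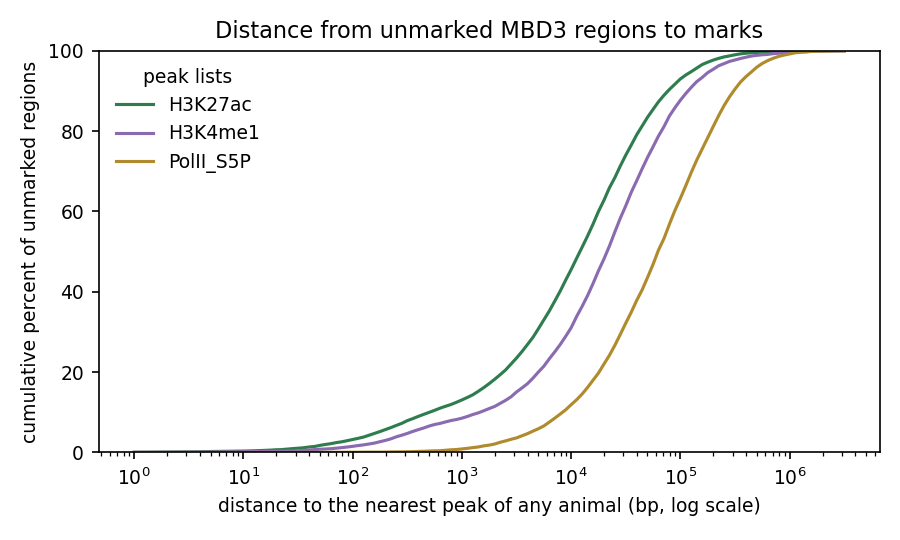
Cumulative percent of the 10921 unmarked regions (y axis) within a given distance of the nearest H3K27ac, H3K4me1 or PolII_S5P peak of any animal (x axis, bp, log scale). The curves reach 13.1%, 8.52% and 0.870% at 1000 bp and have medians of 11983, 21352 and 62250 bp.

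Other MBD3 regions without H3K27ac lay at similar distances from it. The 2194 reproducible regions with H3K4me1 or PolII_S5P but no H3K27ac had a median of 10260 bp, and the 12619 unmarked regions of a single library 9402 bp. Strength varied by less than 10 percentile points over 4 classes of distance. In animals 5, 7 and 9 the median percentile was 47.5, 47.3 and 59.2 within 1000 bp of H3K27ac. It was 42.2, 43.8 and 51.2 from there to 10 kb, 44.8, 45.3 and 52.0 from 10 to 50 kb and 50.6, 53.5 and 57.0 beyond 50 kb. The lowest medians were in the class from 1 to 10 kb in all 3 animals. The share with peaks in all 3 libraries was 42.5%, 39.8%, 42.0% and 48.2% in the same order.

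The farthest regions were in stretches without any mark peak. Chromosome 2, 87356382 to 87356680, lay 2099243 bp from H3K27ac and had MBD3 folds of 6.46 and 3.14 in animals 5 and 7 and no peak in animal 9. A pair on chromosome 12, at 19437358 to 19438545 and 23059631 to 23060677, lay 1504959 and 1465799 bp away. The first of these had folds of 7.90, 11.03 and 5.97 in animals 5, 7 and 9 and the second 5.05, 4.90 and 5.02. In all 3 the nearest mark of any kind was H3K27ac.

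At the edge of the rule, members and excluded regions differed by single base pairs. Chromosome 2, 32001289 to 32001623, and chromosome 3, 104448534 to 104448964, were members directly adjacent to an H3K27ac peak, and chromosome 1, 100159324 to 100159913, was adjacent to another mark. Chromosome 7, 68883061 to 68883430, was excluded because 1 bp overlapped an H3K27ac peak of animal 9, with MBD3 folds of 12.5, 16.0 and 7.57. Chromosome 12, 102601070 to 102601367, and chromosome 3, 108072180 to 108072501, were excluded by 1 bp of an H3K27ac and an H3K4me1 peak of animal 5. Such cases were few, since 266 members (2.44%) lay within 50 bp of a mark peak and 385 marked regions (1.04%) overlapped marks by 50 bp or less.

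Unmarked regions were spread thinly, with some in dense runs. The gap between neighbours had a median of 84424 bp (interquartile range 28140 to 224800 bp), against 17224 bp between the more numerous marked regions. The largest gap, 11.03 Mb, was on chromosome 14 from 87378977 to 98405554. A gap under 10 kb to another unmarked region was found for 2295 (21.01%), which formed 1015 runs, 843 of them of only 2 regions. There were 12 runs of 5 or more, holding 102 regions. The nearest marked MBD3 region lay a median of 19008 bp away.

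The 3 densest runs held 52 regions (0.476%). The largest, 22 regions over 67.0 kb on chromosome 6 from 114544010 to 114610997, had MBD3 folds of 2.44 to 5.75 in animal 5 and 2.79 to 5.83 in animal 7. In animal 9 only 5 of the 22 had a peak, with folds of 2.90 to 3.54. Next to it, 18.5 kb before its start, 15 regions lay between 114471829 and 114525460, with folds of 2.64 to 7.47 in animal 5, 3.03 to 5.44 in animal 7 and peaks at 3 of 15 in animal 9. The medians in animals 5 and 7 were 3.69 and 3.82 in the first run and 4.26 and 4.01 in the second, below the medians of all unmarked regions.

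In the run on chromosome 4, 88675613 to 88724540, the folds were higher and the steps under 3500 bp more even. The input samples were not analysed here, so whether copy number or mappability of the sequence enters the folds and steps of these runs was not tested. Of its 15 regions, 13 had peaks in all 3 libraries, and median folds were 6.25, 7.55 and 4.25 in animals 5, 7 and 9. Of the 14 steps between neighbouring midpoints, 13 were under 3500 bp, with a median of 2931 bp, a range of 2798 to 3129 bp and an SD of 97.8 bp. The widths ran from 427 to 772 bp. In the first chromosome 6 run 16 of 21 steps were under 3500 bp, with a median of 2507 bp, a range of 2067 to 2714 bp and an SD of 212 bp. In the second run 11 of 14 were, with a median of 2241 bp and an SD of 487 bp. MBD3 regions of a single library, which the steps leave out, numbered 12 and 5 in these 2 runs and 0 in the chromosome 4 run. No marked region and no TDG peak fell in any of the 3 runs, and the nearest mark of any kind was 8499 bp away for the first, 18740 bp for the second and 34611 bp for the chromosome 4 run.

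**Figure D4:**
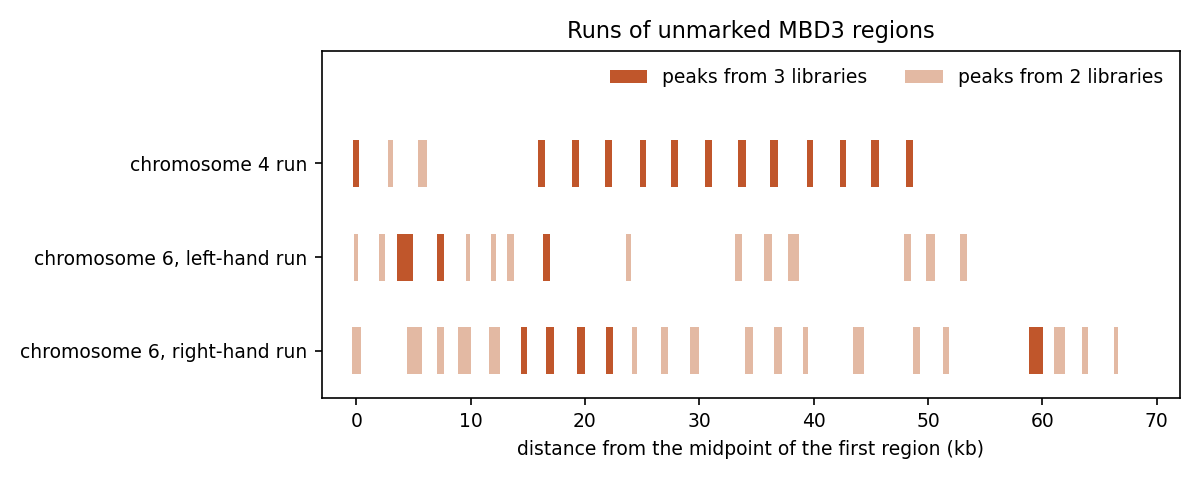
Positions of the 52 unmarked MBD3 regions in the 3 densest runs, as distance in kb from the midpoint of the first region of each run (x axis), with bars drawn to width. Dark bars have peaks from 3 libraries (13 of 15 on chromosome 4) and light bars from 2. Among steps under 3500 bp, those on chromosome 4 are the most even.

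The 3 widest unmarked regions had MBD3 folds between 2.74 and 7.44. Chromosome 15, 85464583 to 85467519 (2937 bp), had folds of 4.63, 5.65 and 3.38 in animals 5, 7 and 9. Chromosome 8, 125518916 to 125521708 (2793 bp), had folds of 6.499, 6.09 and 7.44. Chromosome 1, 170891428 to 170893745 (2318 bp), had folds of 3.23 and 2.74 in animals 5 and 7, no peak in animal 9, and belonged to a run of 6 regions.

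TDG, whose peaks played no part in the choice, was found at few unmarked regions. A TDG peak of any animal lay at 55 of the 10921 unmarked regions (0.504%) and at 574 of the 37189 marked regions (1.54%), against a background of 1.31% over all reproducible MBD3 regions. In animal 5 it was 10 unmarked regions (0.0916%, exact 95% interval 0.0439 to 0.168%) against 83 marked (0.223%, 0.178 to 0.277%), with 0.193% over both sets. In animal 7 it was 12 (0.110%, 0.0568 to 0.192%) against 69 (0.186%, 0.144 to 0.235%), with 0.168% over both. In animal 9 it was 45 (0.412%, 0.301 to 0.551%) against 561 (1.51%, 1.39 to 1.64%), with 1.26% over both. The unmarked share was lower in 3 of 3 animals. The intervals cover counting error only, and regions are not replicates, so their overlap is not a test between the sets.

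Over animals the difference did not pass a test, and with 3 animals none could have passed 0.05. The mean share was 0.205 ± 0.180% for unmarked and 0.639 ± 0.753% for marked regions (SD, n = 3 each), a difference of -0.435 percentage points (two-sided exact permutation p = 0.5, smallest possible 0.1). The within-animal differences had an SD of 0.574 points, and an exact sign-flip test with pairing by animal gave p = 0.25, the smallest possible. With an animal left out and the regions chosen again from the remaining animals, the difference was -0.117 points without animal 9, -0.773 without animal 5 and -0.762 without animal 7. Width moves with this result. Per Mb covered, regions with TDG numbered 1.87, 2.24 and 8.41 in the unmarked set of animals 5, 7 and 9 and 2.54, 2.11 and 17.2 in the marked set (exact permutation p = 0.6). With marked regions weighted to the widths of the unmarked ones, the marked shares became 0.0926%, 0.05001% and 0.832% in animals 5, 7 and 9. The unmarked share was then lower in animal 9, nearly equal in animal 5 and higher in animal 7 (mean difference -0.121 points, exact permutation p = 0.9). Both settings were added after seeing the data.

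**Figure D5:**
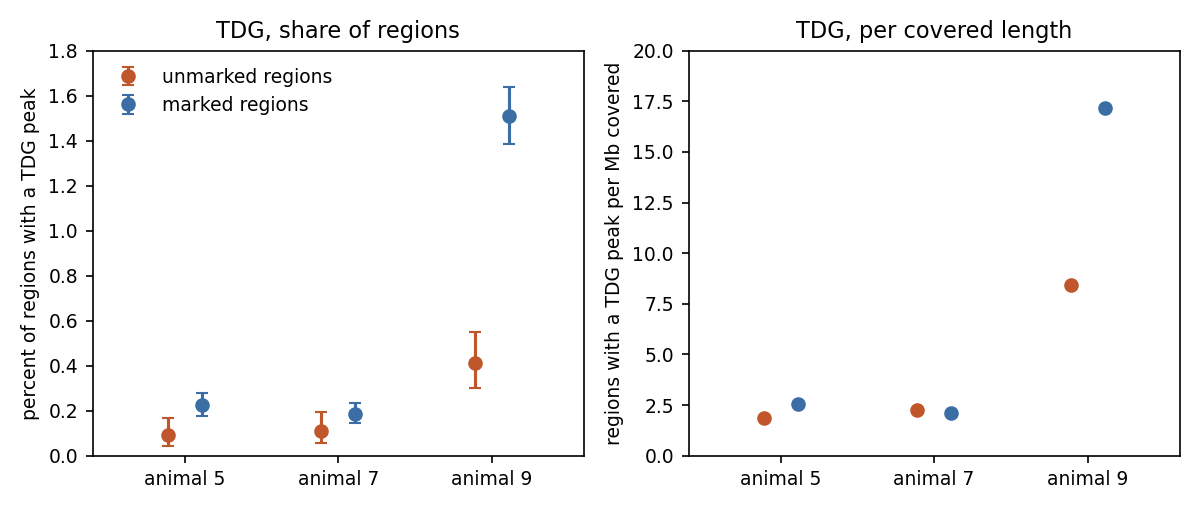
Left, percent of unmarked and marked regions with a TDG peak in each animal (y axis), with exact 95% binomial intervals. Right, regions with a TDG peak per Mb covered by the set, where the points for animal 7 are 2.24 for unmarked and 2.11 for marked regions and those for animal 9 are 8.41 and 17.2.

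Seen from the TDG lists, 8%, 5% and 4.92% of the TDG peaks of animals 5, 7 and 9 lay on unmarked regions, and 70.4%, 28.7% and 61.6% on marked regions. TDG peaks on unmarked regions had median folds of 8.16, 4.05 and 5.21, and the medians of the whole TDG lists were 6.94, 4.63 and 4.47. The animal of the TDG peak also had an MBD3 peak in 10 of 10, 11 of 12 and 29 of 45 regions. Over all unmarked regions, 91.6%, 95.2% and 55.6% had an MBD3 peak in animals 5, 7 and 9. A link of TDG with MBD3 of the same animal was not tested. In the 50 pairs from the same animal the summits of TDG and MBD3 lay a median of 53 bp apart, and 31 were within 100 bp. The 55 regions had a median width of 507 bp and lay a median of 6250 bp from H3K27ac, and the regions without TDG 435 bp and 11998 bp. TDG was present at 0.631% of unmarked regions within 1000 bp of H3K27ac (9 of 1427) and at 0.621% of those from there to 10 kb (22 of 3545). It was present at 0.507% from 10 to 50 kb (21 of 4139) and at 0.166% beyond 50 kb, where the share rests on 3 of 1810 regions.

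Few of these sites had TDG in more than 1 animal. TDG was seen in 1 animal at 45 unmarked regions, 36 of them in animal 9, in 2 animals at 8 and in all 3 at 2. Chromosome 2, 118877189 to 118877889, had TDG folds of 15.3, 13.5 and 17.3 in animals 5, 7 and 9 and MBD3 folds of 10.4 and 3.88 in animals 5 and 7, with no MBD3 peak in animal 9. It lay 17393 bp from H3K27ac. Chromosome 12, 97028220 to 97028560, had TDG folds of 7.19, 4.23 and 5.99 and weak MBD3 folds of 3.10 and 5.74 in animals 5 and 7. Neither site had MBD3 in all 3 libraries.

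Among the 8 sites with TDG in 2 animals, chromosome 17, 4676442 to 4676823, had TDG folds of 25.9 and 7.88 in animals 5 and 7 and MBD3 folds of 7.38, 17.2 and 19.2 in animals 5, 7 and 9. Chromosome 10, 30686763 to 30687296, had TDG folds of 5.77 and 22.9 in animals 5 and 9, and the MBD3 folds 10.9, 6.91 and 3.58. The other sites with TDG in 2 animals were a second one on chromosome 10, a second one on chromosome 17, 1 on chromosome 11 and 3 on chromosome 13.

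TDG at unmarked regions gathered on part of chromosome 13. The stretch of chromosome 13 from 21 to 24 Mb, set after the positions were seen, held 12 of the 55 (21.8%), and the other 43 were on 15 other chromosomes. It held 30 unmarked regions, of which 12 (40%) had TDG, and 76 marked regions, of which 14 (18.4%) had TDG. Chromosome 13, 21344586 to 21345155, had TDG folds of 11.1 and 22.8 in animals 7 and 9 and MBD3 folds of 17.1 and 6.47 in animals 5 and 9. Its neighbour at 21345443 to 21345720 had TDG folds of 12.5 and 16.9 in animals 5 and 9 and MBD3 folds of 9.23, 10.1 and 5.55 in animals 5, 7 and 9. With the window left out, the difference in TDG share between unmarked and marked regions was -0.460 points (exact permutation p = 0.4). The window was set where unmarked regions with TDG gathered, so leaving it out lowers the unmarked share by construction. This value is therefore a description and gives no separate support.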

How the data were processed

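The members and alternatives were chosen with earlier results of these data known. The submitters' processing notes name MACS2 2.2.7.1, Picard 2.18.29, SAMtools 1.16.1, Trim Galore 0.6.7 and bcl2fastq 2.20, with mm39 and hg38 as builds. Which aligner and control they used is not given in the sources used here. Each library has 1 peak list, deposited by the authors in 15 files. Each deposited peak has a summit offset (other), an integer score, a fold enrichment (ratio) and the −log10 of both its p-value and its q-value. The lowest −log10 q-value was between 1.30 and 1.44 in every list. The fold is the authors' value and ranks or describes peaks within a list only.

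Peaks on chromosomes 1 to 19 were merged where they shared at least 1 bp. Strength is the percentile of fold within a list. Shares per animal, 3 values against 3, went into an exact permutation test (two-sided). The labels give the animal of each library, so the numbers pair the samples. The Jaccard index of MBD3 lists with other antibodies' lists was 0.0927 within animals and 0.0869 between them. Named regions are the 10 strongest, 10 with TDG in most animals, 3 farthest from H3K27ac, 3 widest, 3 densest runs and 3 on each side of the rule's edge. The interval code was tested on simulated lists. Gene context and sequence need mm39 and were not run. Input samples (3) were not analysed here. Computations ran in Python 3.11.15 with pandas 2.3.3, numpy 2.4.6, matplotlib 3.10.9 and scipy 1.17.1.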

Additional observations from a re-analysis of the deposited data

Results flagged for a closer look

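Chromosome X was outside the analysed chromosomes. It held 167 regions that met the same conditions, which is 22.2% of its 751 reproducible MBD3 regions, against 22.7% on chromosomes 1 to 19. They are named here because they are a signal in data that no comparison above used.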

How the results depend on the processing

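The number of unmarked regions stayed within 1.5 times the main count of 10921 in 8 alternatives, where it ran from 7704 to 16270. The highest counts were 16270 with marks asked of 2 libraries, 15615 with a −log10 q of at least 5 asked of the marks and 15310 with the mark holding an MBD3 summit. The number was 4627 when MBD3 was asked of all 3 libraries and 6478 to 10017 with 1 animal left out, lowest without animal 7. The percent unmarked was 20.0% with a stricter q-value for MBD3 (−log10 q of at least 5) and 32.5% with that q-value for the marks. It was 33.8% with marks asked of 2 libraries, 18.5% with marks counted within 1000 bp, 31.8% with the mark holding an MBD3 summit and 15.3% with MBD3 in all 3 libraries. The median distance to H3K27ac was 6730 bp with the stricter marks, 6099 bp with marks of 2 libraries, 5893 bp with the summit rule and 18021 bp within animals. The median width was 476 bp with the summit rule and 491 bp with all 3 libraries, where the mean percentile was 59.99 and the median gap 211352 bp. Leaving out 1 animal gave percentiles of 46.9 to 57.1 and median gaps of 91024 to 154054 bp. The share with a mark in the left-out animal was 29.8% with marks of 2 libraries. The differences in TDG, in recurrence, in peak width and in percentile kept their sign in every alternative run. With the pairing by animal (replicate block), the exact sign-flip p was 0.25 for the TDG difference of -0.435 points and 0.25 for the recurrence difference of -13.1 points, the smallest possible. Where a value moved, the rule itself had changed or a library had been dropped, and no other cause was tested. With 3 animals no test here could pass 0.05. The TDG shares rest on 10, 12 and 45 unmarked regions in animals 5, 7 and 9.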

Other observations

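The MBD3 list of animal 9 ranked the classes of marked regions differently from the other lists. Regions with H3K27ac and PolII_S5P had median percentiles of 72.6 and 70.5 in animals 5 and 7 and 34.7 in animal 9, while regions with H3K27ac and H3K4me1 had 62.0, 66.0 and 68.6 in animals 5, 7 and 9. Unmarked regions had 45.4, 46.1 and 53.7 on the same measure, the strongest peak of each region. Chromosome Y, in animals labelled female, held 12 MBD3 regions from at least 2 libraries, of which 7 had no mark.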
